A study of Sus scrofa with 28 samples.

Results

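Hepatocytes make most of the proteins of blood plasma and secrete them into the circulation. The genes of these proteins are classic markers of the liver and are among the most highly transcribed genes of the organ. ATAC-seq marks accessible chromatin by a transposase that inserts sequencing adapters where DNA is accessible, and a peak is a stretch in which a library held more insertions than the peak caller's background. The genes examined here are ALB, TTR, HPX and TF, which encode carriers, FGA, FGB, FGG and F2, which encode clotting proteins, and SERPINA1 and AHSG, which encode inhibitors. They were chosen by name, with earlier results of these data known. A peak was counted for a gene when its centre lay inside the gene or within 1000 bp of either end in the RefSeq annotation of the pig build Sscrofa11.1. The 3 neighbouring fibrinogen genes were treated as 1 neighbourhood. RefSeq gives the symbol TF to 2 records, so the 10 symbols matched 11 records in 9 neighbourhoods. The second TF record carries the synonym PICA, an inhibitor of carbonic anhydrase of the transferrin family. Of 84192 listed peaks, 107 belonged to these genes.

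The libraries came from liver of female Zlotnicka White pigs of 180 days, slaughtered at 100 ± 2 kg. The series title names fat content of pigs as its question. There were 4 groups of 7 libraries, high fat 600, low fat 600, high fat 200 and low fat 200. The labels state neither what 200 and 600 mean nor which tissue the fat content was measured in, and they put it under a tag named shear force. Liver pieces were digested with Accutase, strained and frozen, with no sort of cell types named. All 600 libraries carry another lane tag than the 200 libraries, so label and lane cannot be told apart. A 600 and a 200 library of the same fat group and replicate number also share the number in their titles. They are called a library pair below, and the labels do not say whether a pair is from 1 animal.

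The number of listed peaks, the measure of yield in these files, ranged from 39 to 6453 in high fat 600, from 101 to 3775 in low fat 600, from 205 to 17652 in high fat 200 and from 196 to 8221 in low fat 200. Read depth is unknown. Hepatocyte markers were listed for 9 of 10 genes, all but ASGR1, with 0 to 6 per library in high fat 600, 0 to 3 in low fat 600, 0 to 8 in high fat 200 and 0 to 6 in low fat 200. Kupffer cell and macrophage markers were listed for 3 of 10, without CD68, CD163, ADGRE1, VSIG4, C1QA, C1QB and C1QC, and reached 2, 1, 3 and 3 per library in these groups. Endothelial and stellate cell markers were listed for 2 of 10, lymphocyte markers for 4 of 9, erythroid markers for 1 of 5 and cholangiocyte markers for 0 of 5. The 4 from the lymphocyte list, PTPRC, CD3D, NKG7 and CCL5, were listed in high fat 200 replicate 1 alone, the library with the most peaks. The Kupffer cell and macrophage markers CD14, MARCO and CSF1R were listed in 6, 5 and 4 libraries. PECAM1, KDR, LYVE1, CLEC4G, DCN, COL3A1, RELN, LRAT, CD3E, CD2, CD79A, CD79B, MS4A1, HBB, ALAS2, HBM, AHSP, SPP1, KRT19, SOX9, EPCAM and CFTR were listed in no library. Over all protein-coding genes 61.6% were listed in at least 1 library, and 68.8% of those with a gene symbol. In bulk tissue, fewer cells of a type, less accessible chromatin per cell and a low yield of the library cannot be told apart.

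All 9 neighbourhoods held a listed peak in at least 1 library, and these peaks came from 12 of the 28 libraries. Over all protein-coding genes 61.6% had one, and 68.8% of those with a gene symbol. At least 3 libraries listed 8 of the 9, against 39.0% of all coding genes and 44.2% of those with a symbol. At least 5 libraries listed 6 of the 9, against 30.7% of the coding genes with a symbol. HPX, fibrinogen, TTR and ALB were listed in at least 7 libraries, against 18.8% and 21.4%. The fibrinogen neighbourhood joins 3 genes and so has more length in which to hold a peak. The 12 libraries with such a peak held 1325 to 17652 peaks in all, and the 16 without held 39 to 1610. Library pairs of high fat replicates 1 and 7 gave 70 of the 107 peaks (65.4%), while they gave 48.1% of all listed peaks. Without these 4 libraries all 9 neighbourhoods still had a peak, against 49.4% of coding genes, but AHSG, F2, the PICA record and SERPINA1 then had theirs in low fat 200 replicate 1 alone. Without that library as well, 5 of the 9 were listed, against 44.5% of coding genes.

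**Figure D1:**
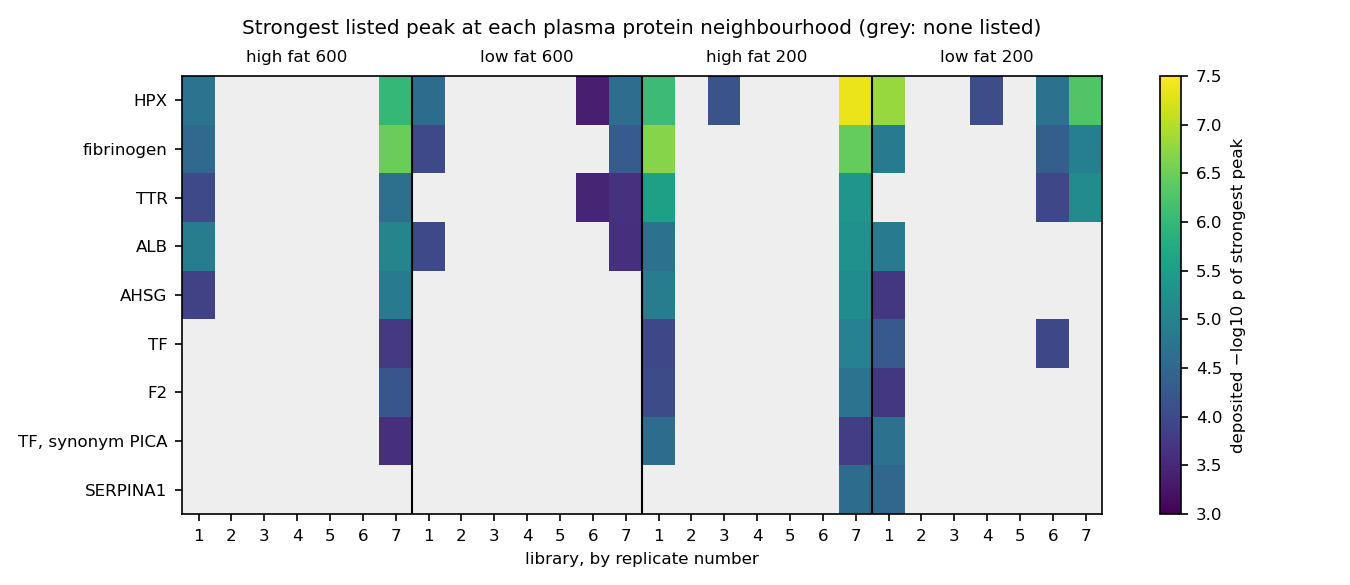
Strongest deposited −log10 p at each of the 9 neighbourhoods (rows, most often listed at the top) in each of the 28 libraries (columns, by group and replicate number), with grey where no peak was listed. HPX was listed in 12 libraries and SERPINA1 in 2. Coloured columns stood at replicates 1 and 7 of each group, low fat replicate 6, high fat 200 replicate 3 and low fat 200 replicate 4. The same replicate number in high and low fat does not mean a matched library.

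High fat 200 replicate 3 listed fewer of these genes than some libraries with fewer peaks. It held 6288 peaks and listed 17.7% of the coding genes, but a single plasma protein neighbourhood, HPX, with 1 peak. Low fat 200 replicate 6 held 4208 peaks, listed 18.4% of the coding genes and 4 of the neighbourhoods. Low fat 200 replicate 7, with 6691 peaks and a larger share of the coding genes, listed 3. Low fat 200 replicate 4, with 2467 peaks and a smaller share, also listed 1. At a share of 17.7%, 1 of 9 neighbourhoods was not clearly below the coding genes, and this was not tested. In high fat 200 replicate 3, 23.9% of the peaks lay within 1000 bp of a gene end, against 61.4% in low fat 200 replicate 6. Its 600 partner, high fat 600 replicate 3, listed 1336 peaks and 0 of the neighbourhoods, and 25.4% of its peaks lay near a gene end. High fat 200 replicate 3 listed 1 hepatocyte marker, 0 Kupffer cell and macrophage markers, 1 endothelial and stellate marker, 1 erythroid marker and 5 of 63 other plasma protein genes. Low fat 200 replicate 6 listed 2, 1, 0, 0 and 7 of these. Leaving out both libraries of high fat replicate 3 took away 1 of the 107 peaks, at HPX.

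**Figure D2:**
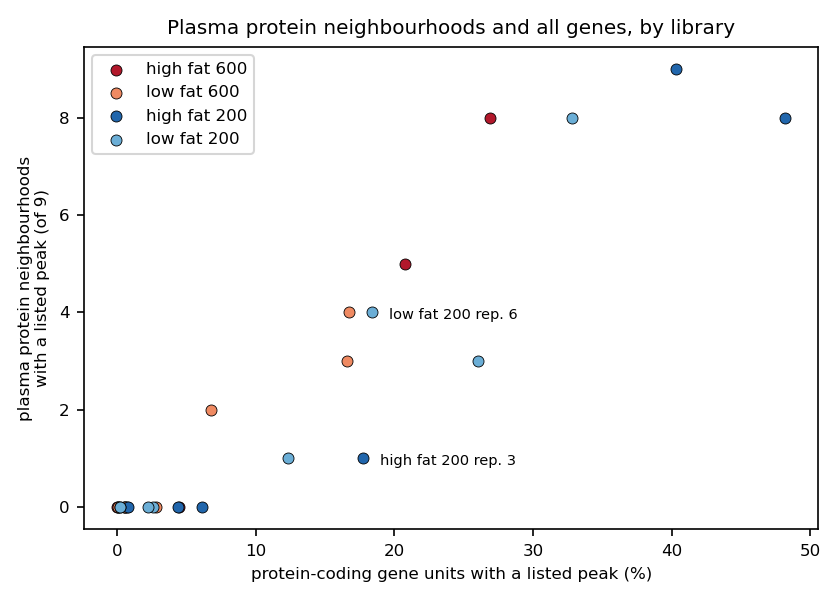
Number of plasma protein neighbourhoods with a listed peak (vertical, of 9) against the percentage of protein-coding genes with one (horizontal), 1 point per library, coloured by group. High fat 200 replicate 3 lies at 17.7% and 1 neighbourhood, while low fat 200 replicate 6 lies at 18.4% and 4.

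Among the carriers, HPX, the gene of the heme-binding hemopexin (chromosome 9 from 3288288 to 3297051), was listed most often. Its strongest peak had a deposited −log10 p of 4.71 and 6.00 in high fat 600 replicates 1 and 7. In low fat 600 replicates 1, 6 and 7 it was 4.59, 3.37 and 4.61. In high fat 200 replicates 1, 3 and 7 it was 6.09, 4.15 and 7.37, and in low fat 200 replicates 1, 4, 6 and 7 it was 6.80, 4.07, 4.68 and 6.27. The high and low fat values overlapped in the 200 set. In the 600 set both high fat values lay above the 3 low fat values, and both high fat libraries also listed more peaks in all than these low fat libraries. Of the coding genes, 5.19% were listed in 12 or more libraries. The value of 7.37 was the highest of all 107 peaks and lay at percentile 96.6 of its own library, counted from the weakest peak. Within each library of at least 1000 peaks, the 1000 strongest included HPX in 6 of 15 libraries, fibrinogen, TTR and ALB in 1 each and the other neighbourhoods in 0. The median library of these had 5.21% of the coding genes among its 1000 strongest peaks.

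At HPX most peaks lay at the lower-coordinate end. The stretch from 3287070 to 3290439 was listed in 11 libraries, in 2 high fat 600, 3 low fat 600, 2 high fat 200 and 4 low fat 200. In the 600 set each library had 1 peak in it, with widths of 2919 and 2817 bp in high fat replicates 1 and 7 and of 1947, 877 and 2913 bp in low fat replicates 1, 6 and 7. In the 200 set the same stretch held 1 to 4 peaks a library. High fat 200 replicate 1 listed 4 there, of 447, 546, 699 and 495 bp, and low fat 200 replicate 6 listed 1 of 440 bp. A further stretch at the upper end, from 3295240 to 3298407, was listed in 3 libraries, all of high fat replicates 1 and 7. The peak of high fat 200 replicate 3, 338 bp from 3291657 to 3291994, overlapped with no other library's peak. Gene strand was not used here, so the ends are named by coordinate only.

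TTR, the gene of the thyroxine and retinol carrier transthyretin (chromosome 6 from 115496338 to 115503974), had a site close to its lower end in every library that listed it. The peaks of these 8 libraries were centred between −62 and 81.5 bp from that end in the 600 set and between −78 and 47 bp in the 200 set. The strongest −log10 p at TTR was 4.00 and 4.67 in high fat 600 replicates 1 and 7 and 3.47 and 3.64 in low fat 600 replicates 6 and 7. It was 5.55 and 5.35 in high fat 200 replicates 1 and 7 and 3.98 and 5.16 in low fat 200 replicates 6 and 7. The high fat values lay above the low fat values in either label, with 2 libraries each, which allows no exact test below 0.05. These high fat libraries also had more listed peaks than the low fat ones. Low fat 600 replicate 1 and low fat 200 replicate 1, with 3332 and 8221 peaks, listed nothing at TTR. The upper end was listed only in the pair of low fat replicate 7, from 115503282 to 115504841, at 3.53 in its 600 and 3.82 in its 200 library.

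ALB, which encodes albumin, the main osmotic and carrier protein of plasma (chromosome 8 from 69643427 to 69663152), had no peak at its lower end in any library. Its peaks gathered at the upper end, in a stretch of 4531 bp from 69660412 to 69664942 that was listed in 7 libraries. The strongest −log10 p was 4.89 and 5.05 in high fat 600 replicates 1 and 7, and 4.00 and 3.63 in low fat 600 replicates 1 and 7. It was 4.68 and 5.27 in high fat 200 replicates 1 and 7 and 4.88 in low fat 200 replicate 1. The fat groups thus overlapped in the 200 set and did not in the 600 set, where 2 libraries stood on each side. These high fat 600 libraries also listed more peaks in all, with 4455 and 6453 against 3332 and 3775. Single peaks here were broad. They spanned 4433 and 3873 bp in high fat 600 replicates 1 and 7 and 3915 and 1659 bp in low fat 600 replicates 1 and 7, against 703 and 1707 bp in high fat 200 replicates 1 and 7 and 1334 bp in low fat 200 replicate 1. Low fat 200 replicate 7 had a peak in this stretch too, but its centre lay beyond the 1000 bp window. The neighbouring albumin-family genes AFP, which encodes the fetal alpha-fetoprotein, and AFM, which encodes the vitamin E carrier afamin, had no listed peak in any library.

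**Figure D3:**
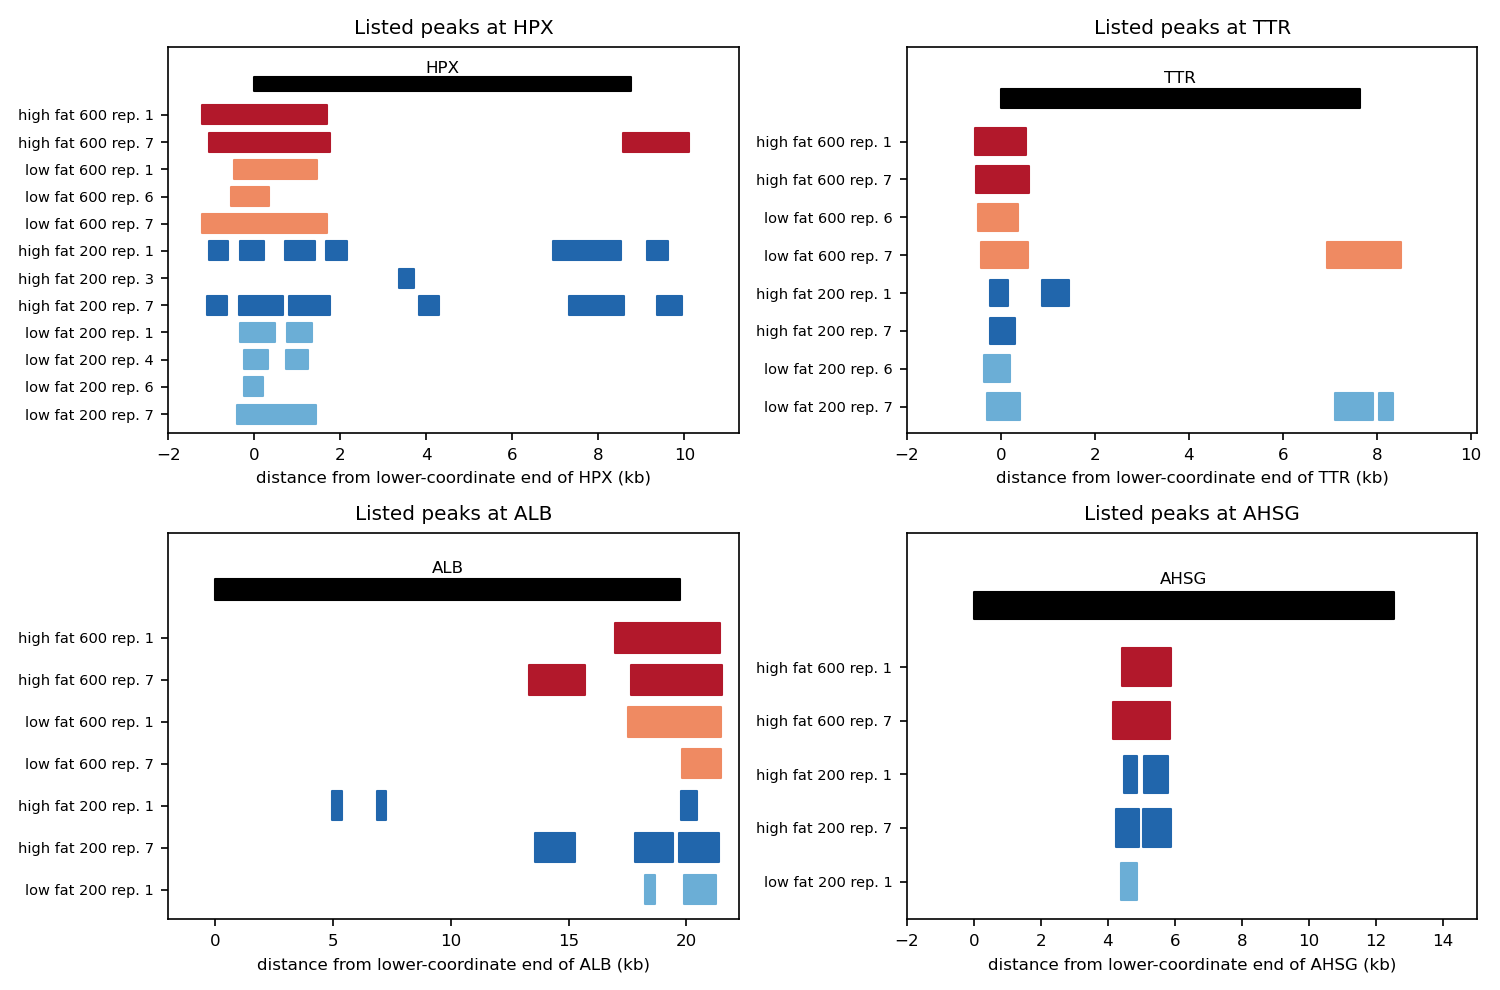
Listed peaks (coloured bars, 1 row per library, coloured by group) at HPX, TTR, ALB and AHSG (black bars), by distance in kb from the gene's lower-coordinate end. HPX and TTR peaks gather at the lower end, ALB peaks at the upper end over up to 4433 bp, and AHSG peaks inside the gene.

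TF, which encodes the iron carrier transferrin (chromosome 13 from 74930655 to 74970599), was listed in 5 libraries, each with 1 peak at the lower end. The −log10 p was 3.74 in high fat 600 replicate 7, 3.98 and 5.00 in high fat 200 replicates 1 and 7, and 4.25 and 3.98 in low fat 200 replicates 1 and 6. No low fat 600 library listed it. The record with the synonym PICA (74862502 to 74907059 on the same chromosome) was listed in 4 libraries at 2 sites. Its lower end was open in high fat 200 replicate 7 at 3.84 and low fat 200 replicate 1 at 4.69. A site inside it, from 74877543 to 74878637, was listed at 3.61 in high fat 600 replicate 7 and 4.59 in high fat 200 replicate 1. Both records belong to 1 gene family, and how reads that map to more than 1 place were treated is not stated, so the split between them is uncertain.

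Fibrinogen, the precursor of the fibrin clot, is built from the alpha, beta and gamma chains of FGA, FGB and FGG, which lie side by side on chromosome 8. FGG runs from 74553040 to 74562151, FGA from 74574870 to 74584202 and FGB from 74598170 to 74607409. FGA had 15 peaks, FGG 11 and FGB 7, against 25 at HPX alone. With the 3 genes joined, the neighbourhood was listed in 9 libraries with 33 peaks. Its strongest −log10 p was 4.53 and 6.48 in high fat 600 replicates 1 and 7, against 4.00 and 4.30 in low fat 600 replicates 1 and 7. It was 6.68 and 6.43 in high fat 200 replicates 1 and 7, against 4.88, 4.36 and 4.94 in low fat 200 replicates 1, 6 and 7. The high fat values lay above the low fat values in either label, among the few libraries with a peak. These groups are too small for an exact test to fall below 0.05. How many of all coding genes showed such an order is not given, here or at HPX, TTR and ALB. The high fat libraries also listed more peaks in all, with 4455 and 6453 against 3332 and 3775 in the 600 set and 17652 and 11943 against 8221, 4208 and 6691 in the 200 set, and the part of yield was not tested.

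The 3 genes held their peaks at different places. FGG was open at its lower end in 8 libraries, in a compact stretch of 1106 bp, with centres between −3 and 109.5 bp from the end in the 600 set and between 39.5 and 121.5 bp in the 200 set. FGA was open at the lower end in 5 libraries, of which 4 were 200 libraries. A broad stretch from 74580895 to 74585499, partly inside the gene and across its upper end, was listed in 6 libraries. In 5 libraries a peak centre lay within 1000 bp of that end. The peak of high fat 600 replicate 7 there was 4367 bp wide at 6.48, percentile 97.9 of its library, and that of high fat 600 replicate 1 was 3578 bp wide at 4.53. FGB was listed in 6 libraries, all of them from 74596367 to 74600284 around the lower end, and its upper end in none. PLRG1, a splicing factor gene beyond FGB, was listed in 6 libraries. LRAT, a stellate cell gene beyond FGG, was listed in none. Between the genes, outside the windows, 3 more peaks were listed, 1 each in high fat 600 replicate 7, high fat 200 replicate 1 and high fat 200 replicate 7.

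**Figure D4:**
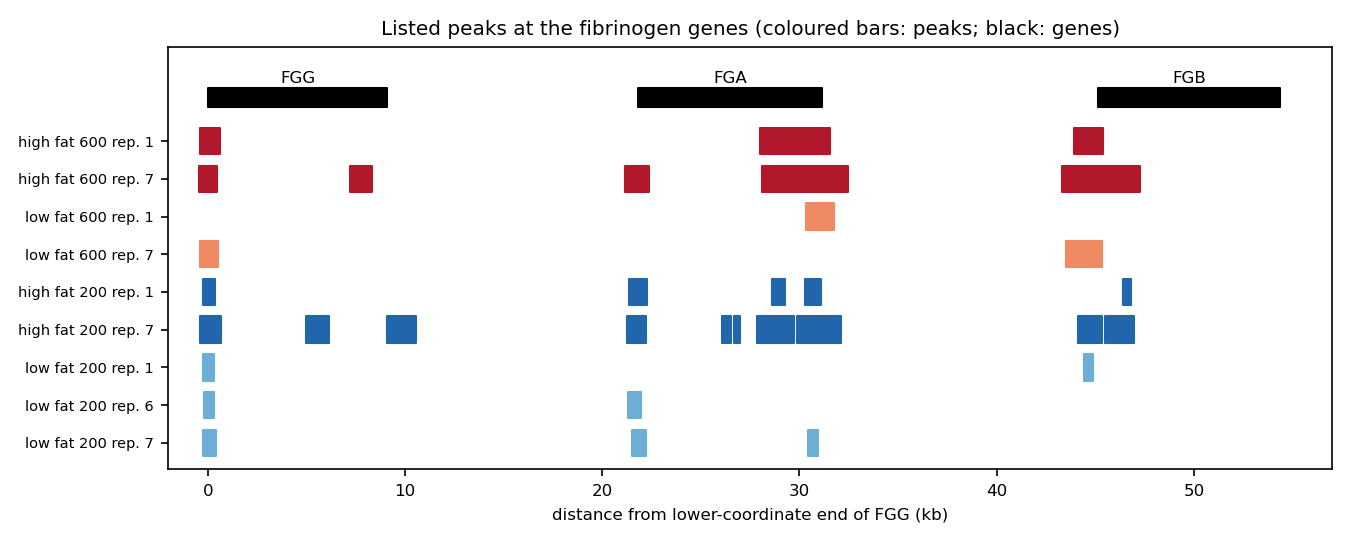
Listed peaks (coloured bars, 1 row per library, coloured by group) at FGG, FGA and FGB (black bars), by distance in kb from the lower-coordinate end of FGG. The compact site at the FGG end recurs in 8 libraries, while the broad stretches reach across the upper end of FGA and the lower end of FGB.

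F2, which encodes prothrombin, the precursor of the clotting protease thrombin (chromosome 2 from 15793257 to 15819151), was listed in 4 libraries, each time at its upper end. The −log10 p was 4.20 in high fat 600 replicate 7, 4.02 and 4.72 in high fat 200 replicates 1 and 7, and 3.73 in low fat 200 replicate 1. None was in a low fat 600 library. The peaks lay between −109.5 and 892 bp from the end. Here too the 2 high fat 200 libraries held more peaks in all, with 17652 and 11943 against 8221.

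Of the inhibitors, SERPINA1 was the member listed least and AHSG the member open only inside the gene. SERPINA1 encodes alpha-1-antitrypsin, the inhibitor of neutrophil elastase (chromosome 7 from 115604282 to 115616915). It was listed in 2 libraries, at 4.60 in high fat 200 replicate 7 and 4.48 in low fat 200 replicate 1, and in no 600 library. Both shared a site from 115614490 to 115614965. AHSG encodes fetuin-A, an inhibitor of calcification (chromosome 13 from 124426313 to 124438848). Its strongest −log10 p was 3.86 and 4.84 in high fat 600 replicates 1 and 7, and 4.88 and 5.18 in high fat 200 replicates 1 and 7, against 3.73 in low fat 200 replicate 1. No low fat 600 library listed it. These high fat libraries also held more peaks in all, 17652 and 11943 against 8221 in the 200 set. In the 600 set they held 4455 and 6453, against at most 3775 in low fat 600. The part of yield was not tested. All 7 AHSG peaks fell in 1 stretch of 1727 bp from 124430475 to 124432201, with centres 4587 to 5474.5 bp from the lower end. The related genes beside it, FETUB and HRG, were listed in 1 library each.

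Within their own libraries, peaks at most of these genes were close to the middle in strength. The median percentile of the 107 within their own libraries was 54.9, and 7 of them (6.54%) lay above percentile 90, as did 10.1% of all peaks. The median of the strongest peak per library was 79.9 at HPX, 67.0 at AHSG, 63.7 at ALB, 63.2 at fibrinogen and 58.4 at TTR. It was below 50 at SERPINA1 (46.0), F2 (44.8), the PICA record (41.6) and TF (32.7). These medians are not on equal terms. The strongest peak was taken from up to 10 peaks a library at fibrinogen and 6 at HPX, but from 1 at TF and the PICA record. Peaks within 1000 bp of an end of the gene made up 73 of 107 (68.2%), against 62.2% of the peaks at all genes. The share over all genes pools 28 libraries and was not matched for gene length. Among all peaks of a library, the share near a gene end ran from 1.98% in low fat 600 replicate 2 to 73.2% in low fat 600 replicate 4. The 107 peaks formed 27 sites when overlapping peaks were chained. Of these sites, 11 came from 1 library and 9 from at least 5.

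Peaks at several of these genes were wide. In the 600 libraries the 32 peaks had a median width of 1554 bp, against 1049 bp for all peaks of these libraries. In the 200 libraries the 75 peaks had a median of 577 bp, against 510 bp for all. Of the 600 peaks, 17 of 32 (53.1%) were at least 1500 bp wide, against 15.4% of all. Of the 200 peaks, 7 of 75 (9.33%) were, against 1.41% of all. This limit was chosen after the values were seen, so no test is given. ALB and HPX each gave 5 of the 17 wide 600 peaks, FGA and FGB 2 each, and AHSG, F2 and TTR 1 each, whereas FGG gave 0 of 4. Of the 7 wide 200 peaks, ALB gave 3 and FGA and HPX 2 each. All of those at ALB and FGA came from high fat 200 replicate 7, so the share in the 200 set rests mainly on 1 library. Within libraries, the median width at these genes exceeded the library's own median in 4 of 5 libraries of the 600 set and in 5 of 7 of the 200 set. Low fat 600 replicate 6, high fat 200 replicate 3 and low fat 200 replicate 1 were the exceptions, at 858, 338 and 476 bp against 1020, 442 and 542 bp.

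The comparison of the 600 with the 200 libraries found no neighbourhood past the adjusted threshold. By Fisher's exact test on the number of libraries that listed a neighbourhood, with Benjamini-Hochberg adjustment over 8606 genes, 0.0% were called in either direction. At an unadjusted p under 0.05 the test gave 428 genes, 427 of them listed in fewer 600 libraries. HPX was listed in 5 of 14 of the 600 and 7 of 14 of the 200 libraries (exact adjusted p = 1.0) and fibrinogen in 4 and 5 of 14. TTR was listed in 4 of 14 in either set, from the same pairs. ALB was listed in 4 of the 600 and 3 of the 200 libraries, and AHSG in 2 and 3. F2 and the PICA record were listed in 1 and 3 each, TF in 1 and 4 (Fisher's exact p = 0.326, adjusted p = 0.863) and SERPINA1 in 0 and 2, too few for the test. In 85.9% of all genes tested the 600 share was the lower one. In the 15 libraries with at least 1000 peaks, a choice made after the data were seen, HPX was listed in 5 of 6 of the 600 and 7 of 9 of the 200 libraries, so the sign of its difference turned, as did that of fibrinogen.

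In library pairs that both listed a neighbourhood, the strongest peak was wider in the 600 library in 21 of 21 cases. The ratio of widths, 600 over 200, had a median of 2.34 and ran from 1.41 to 6.31. At HPX the widths were 2919 and 546 bp in the 600 and 200 libraries of high fat replicate 1, 2817 and 1035 bp in those of high fat replicate 7 and 1947 and 831 bp in those of low fat replicate 1. They were 877 and 440 bp in low fat replicate 6 and 2913 and 1840 bp in low fat replicate 7. Over all coding genes listed in both libraries of a pair the same held for 93.7% and 91.8% of genes in high fat replicates 1 and 7, and for 87.2%, 95.0% and 89.5% in low fat replicates 1, 6 and 7, with median ratios of 1.58, 1.57, 1.39, 1.60 and 1.47. The median ratios of the plasma protein neighbourhoods in these 5 pairs were 5.35 over 5 neighbourhoods, 2.20 over 8, 2.78 over 3, 1.75 over 2 and 1.42 over 3. They exceeded that of all genes in 4 of the 5 pairs. At most 5 pairs shared a neighbourhood, where the smallest p of an exact sign-flip test is 0.0625, so no test was run.

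**Figure D5:**
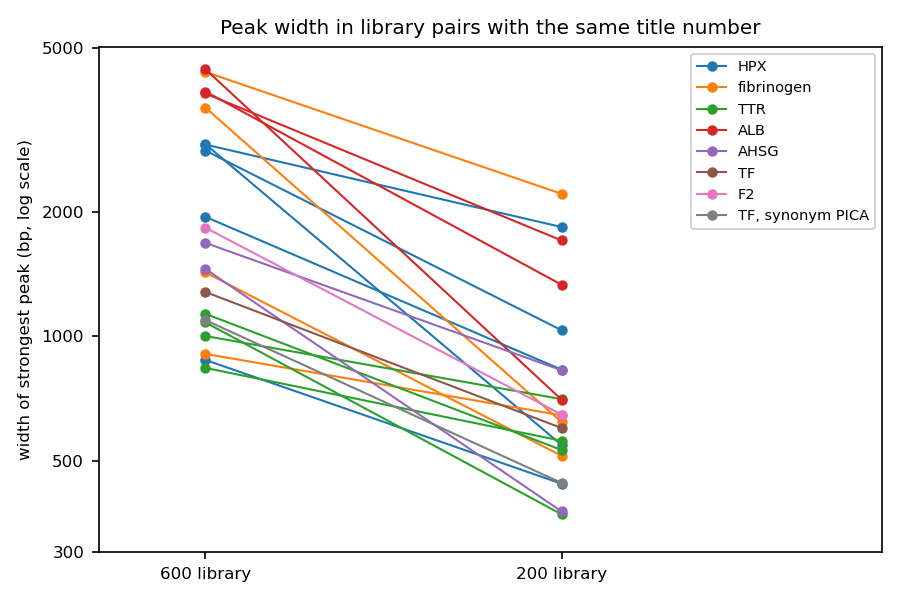
Width in bp (log scale) of the strongest peak at a neighbourhood in the 600 library (left) and the 200 library (right) of the same pair, joined by a line and coloured by neighbourhood. All 21 lines fall to the right, by a median ratio of 2.34.

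Strength went the other way in 19 of these 21 cases, where the 200 library had the higher −log10 p. Over all coding genes it was higher in the 200 library for 92.9% to 98.7% of genes in these pairs. The exceptions were ALB in high fat replicate 1, at 4.89 in the 600 against 4.68 in the 200 library, and fibrinogen in high fat replicate 7, at 6.48 against 6.43. The summed width of all peaks at a neighbourhood was larger in the 600 library in 18 of 21 cases, with a median ratio of 1.48 and a range from 0.686 to 2.99. The 3 exceptions were at HPX and fibrinogen. At HPX it was 2919 bp in the 600 and 4253 bp in the 200 library of high fat replicate 1, and 4365 and 4778 bp in those of high fat replicate 7. At fibrinogen in high fat replicate 7 it was 11595 bp in the 600 and 12262 bp in the 200 library.

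No difference between high and low fat libraries was detectable at the plasma protein neighbourhoods that could be tested, which left out SERPINA1 in both sets and AHSG, TF, the PICA record and F2 in the 600 set. A peak at 1 or more of them was listed in 2 of 7 high fat and 3 of 7 low fat libraries of the 600 set, and in 3 of 7 high fat and 4 of 7 low fat libraries of the 200 set. In the 600 set, HPX was listed in 2 high fat and 3 low fat libraries, TTR, ALB and fibrinogen in 2 and 2 each, AHSG in 2 and 0, and TF, the PICA record and F2 in 1 and 0 each. In the 200 set, HPX was listed in 3 high fat and 4 low fat libraries, fibrinogen in 2 and 3, and TTR and TF in 2 and 2 each. ALB, AHSG, F2 and the PICA record were listed in 2 and 1 each and SERPINA1 in 1 and 1. Fisher's exact adjusted p was 1.0 for each of the 4 neighbourhoods tested in the 600 set and the 8 in the 200 set. Over all genes 0.0% of 3733 in the 600 set and 0.0% of 7790 in the 200 set were called. At an unadjusted p under 0.05 these were 0 and 4 genes. With 7 libraries against 7 the smallest possible p is 0.000583, and at least 44 and 91 genes would have to reach it before 1 could pass. With a library pair counted once if either library listed a peak, HPX was listed in 3 high fat and 4 low fat pairs, fibrinogen in 2 and 3 and ALB in 2 and 2. Again 0.0% of 8162 genes were called, with 6 at an unadjusted p under 0.05.

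Other plasma protein genes were listed in 48 of 63 cases (76.2%), against 61.6% of all protein-coding genes and 68.8% of those with a symbol. The median gene of these lists had a peak in 1 library, and 26 of 63 had one in at least 3, against 39.0% and 44.2%. In the 24 libraries without the pairs of high fat replicates 1 and 7 the count was 28 of 63 (44.4%), below the 49.4% of all coding genes and the 55.4% of those with a symbol in the same libraries. Clotting and fibrinolysis genes were listed for 14 of 16. They were led by F12, the gene of the contact factor XII, in 10 libraries, PROS1, which encodes protein S, in 8, and F11 in 7, while SERPIND1 and SERPINF2 had no peak. Transport and binding genes were listed for 10 of 16, led by AMBP, the gene of alpha-1-microglobulin and bikunin, in 12 libraries, the hemoglobin binder HP in 8 and APCS in 5. A1BG, AFM, AFP, SERPINA7, SHBG and VTN had none. Acute-phase proteins and protease inhibitors were listed for 12 of 15, led by the C1 inhibitor gene SERPING1 in 10 libraries, the angiotensinogen gene AGT in 9 and ITIH2 in 7. HAMP, ITIH4 and SAA4 had none. Complement genes were listed for 12 of 16, led by C2 and CFB in 6 libraries each and C4A in 5, and C3, C5, C8B and MBL2 had none.

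The pattern of listing over the 28 libraries was shared with many other loci. HPX had the same 12 libraries as 53 coding genes with a symbol at least 1 Mb away, among them AMBP and AP5M1. Fibrinogen had the same 9 libraries as 164, among them ADGRL2, ADK and ALDH9A1. ALB had the same 7 as 26, among them AGAP2, AP3M1 and ARHGAP11A. TTR had the same 8 libraries as KIAA1217 alone, and it was followed by C15H2orf88 and C4H8orf37, which shared 8 of 9 libraries with it (Jaccard index 0.889). These indices are a description over 28 libraries, in which yield is shared by all genes.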

How the data were processed

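Per the submitters' processing notes, FastQC, BWA, SAMtools, Picard and Genrich were used with the pig build Sscrofa11.1, with no versions or roles given. The deposited table stacks 1 peak list per library. Per the file headers it holds position, name, score, signal value, a p-value column, summit and library. From its values, the deposited p-value column is −log10 p (2.83 to 7880.9), and the deposited score equals 1000 times signal over width, capped. The signal, the peak's area as the authors deposited it, was used only to break ties. The −log10 p is the authors' value for each peak, carries the unknown depth of its library, and served to describe and rank peaks. A site that is not listed can be closed or too thinly sequenced. Counts of reads were not used here, so no interval or floor is given.

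A gene counted as listed in a library when at least 1 peak centre lay within it or within 1000 bp of an end. Genes listed in at least 3 libraries of a comparison entered a two-sided Fisher's exact test with Benjamini-Hochberg adjustment across the whole table (threshold 0.05). The members and lists were chosen with earlier results of these data known. Named were all members, up to 3 leading genes per list with those without a peak, fixed chromosome neighbours, and the 3 genes most alike in listing for each neighbourhood listed in at least 7 libraries. One gene that this rule names is not reported here. Of the list genes 5 matched no protein-coding symbol on the chromosomes used. Alternatives were other windows, overlap in place of centres, stronger peaks, no minimum number of libraries, a replicate block, chained regions, library pairs with at least 1000 peaks in both, the 1000 strongest peaks of each library that has as many, and each library left out. Labels call the libraries replicates and name no animals, so p-values measure the spread between libraries. Tests ran in scipy 1.17.1, tables in pandas 2.3.3 and numpy 2.4.6, and figures in matplotlib 3.10.9, under Python 3.11.15.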

Additional observations from a re-analysis of the deposited data

How the results depend on the processing

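No plasma protein neighbourhood tested passed the adjusted threshold under the alternatives run (lowest adjusted p 0.437 by exact tests), and SERPINA1 was not tested. This says little of stability for fat. With library pairs of at least 1000 peaks each, and in the 600 set with the 1000 strongest peaks, the fat groups were 3 against 3, where the smallest exact p is 0.1 and no gene could pass. A window of 5000 bp and any overlap can only add listings, so all 9 neighbourhoods had to remain listed there. All 9 also remained listed with a window of 0 bp, for which the share of all coding genes is not given. The same held with only the peaks stronger than their label's median, and without the pairs of high fat replicates 1 and 7 or of replicate 3. Without high fat replicates 1 and 7 and low fat 200 replicate 1, 5 were listed. These subsets of libraries were chosen after the data were seen. Other plasma protein genes numbered 31 of 63 (49.2%) with the stronger peaks, against 40.9% of coding genes and 46.3% of those with a symbol. They numbered 28 (44.4%) without high fat replicates 1 and 7, against 49.4% and 55.4%, and 20 (31.7%) without low fat 200 replicate 1 as well, against 44.5% and 49.9%, so their excess over all genes did not hold there. Of all genes, 0 were called for fat, and 0 for 600 against 200, in each run that left out 1 library. In the 600 against 200 comparison 3 genes were called with a window of 5000 bp, all listed less often in the 600 libraries, and 42 chained regions (1 higher, 41 lower), none of them at these genes. The cause was not tested. HPX differed by −14.3 percentage points, 600 minus 200, over all libraries. In the libraries of at least 1000 peaks (6 against 9) the difference was 5.56 points with all their peaks, a setting added after the data were seen, and 16.7 with the 1000 strongest, and that of fibrinogen was 11.11 with all peaks, against −7.14 over all libraries. A replicate block (exact sign test over same-numbered libraries) called 0 genes in each comparison. For fat its smallest possible p is 0.0156, which 2435 of 7790 genes in the 200 set, 1167 of 3733 in the 600 set and 2551 of 8162 with both labels joined would have to reach. Its pairing rests on the numbers alone, since deviations from group means correlated above 0.1 in 9 of 14 pairs of 600 and 200 libraries, and in 9 of 14 of high and low fat libraries. High and low fat libraries of the same replicate number differ in the number in their titles, so the labels do not tie them to each other. Of the 14 pairs of 600 and 200 libraries, 4 matched best by their own number. Windows mattered for single genes. With the gene body alone, TTR was listed in 5 libraries, F2 in 2 and TF in 1. With stronger peaks, TTR was listed in 5, AHSG in 3, F2 and the PICA record in 2 and TF in 1. Few libraries with many peaks limit every comparison of the fat groups.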
